A study of Mus musculus with 2 samples.

Results

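The mature B cells described here are 831 barcodes of mouse bone marrow, 676 from a control library and 155 from a library carrying a MYC transgene, out of 31569 barcodes in both. A barcode counted as a mature B cell when it held at least 1000 UMIs (unique molecular identifiers, each standing for 1 captured RNA molecule) with under 10% of them mitochondrial. It also needed at least 3 UMIs of Cd79a and Cd79b together, the signalling chains of the B cell receptor, and at least 1 UMI of Ms4a1 (CD20), Ighd (the IgD heavy chain) or Fcer2a (CD23). Barcodes with any UMI of the progenitor genes Vpreb1, Vpreb2, Igll1, Dntt and Rag1, or of the plasmacytoid dendritic gene Siglech, were left out, as were those in which the neutrophil genes S100a8 and S100a9 made up 5% of UMIs or more. The members were thus chosen by their measured UMIs of these genes, whose levels below are a description only.

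The study profiled blood-forming cells of the bone marrow by droplet-based single-cell RNA sequencing, to set MYC overexpression against a control. The control library is labelled Mx1Cre+/-;Rosa26+/+ and the MYC library Mx1Cre+/-;Rosa26LSL-MYC/LSL-MYC, so both carry Mx1-Cre. Mx1-Cre is a recombinase under an interferon-inducible promoter, active in stem cells and in their descendants but also in other interferon-responsive cells, and LSL marks a stop cassette that Cre removes. The age of the animals, their number and the induction of Cre are not given in the sources used here. With 1 library per genotype there is no replicate and no test: each interval below covers counting error only, and a difference between the libraries cannot be told apart from a difference between animals or preparations.

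B cells are made in the bone marrow from progenitors that rearrange their antibody genes, leave as immature cells that still carry CD93 and CD24, and mature into IgM- and IgD-bearing cells, some of which return to the marrow and recirculate. Their identity rests on transcription factors such as Pax5 and Ebf1, and their survival on signals through the B cell receptor and the BAFF receptor. MYC is a transcription factor known for raising ribosome production and metabolism in growing cells, and naive B cells hold little of it until antigen activates them.

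After the limits on UMIs and mitochondrial share, 13251 control and 10543 MYC barcodes were kept. Over all deposited barcodes, before these limits, 97 sequences occurred in both libraries, and 1 mature B cell of each library carried such a sequence. Without the shared sequences 13196 control and 10487 MYC barcodes were left. The mature B cells had a median of 4814 UMIs and 1554 genes in the control library and of 5323 UMIs and 1512 genes in the MYC library, with 4.55% and 4.67% mitochondrial UMIs. S100a8 and S100a9, abundant neutrophil genes, made up a median of 0.401% and 0.690% of their UMIs.

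The label held for most of the members but not for all. In the control library 76 members (11.2%) and in the MYC library 16 (10.3%) held at least 5 UMIs of Jchain, which joins secreted antibodies and marks plasma cells. Those members were large, with medians of 21766 and 21716 UMIs, and held 29.8% and 32.3% of all member UMIs, and 66 of the 76 and 14 of the 16 had met the rule through Ms4a1 alone. A further 36 control and 16 MYC members held transcripts of other cells. In all, members with at least 5 UMIs of macrophage and monocyte genes were 7.54% of the control and 18.1% of the MYC members, and 10 control members and none of the MYC members had at least 2% haemoglobin UMIs. The plot of Jchain against the mature markers shows the plasma cell group as a separate cloud.

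**Figure D1:**
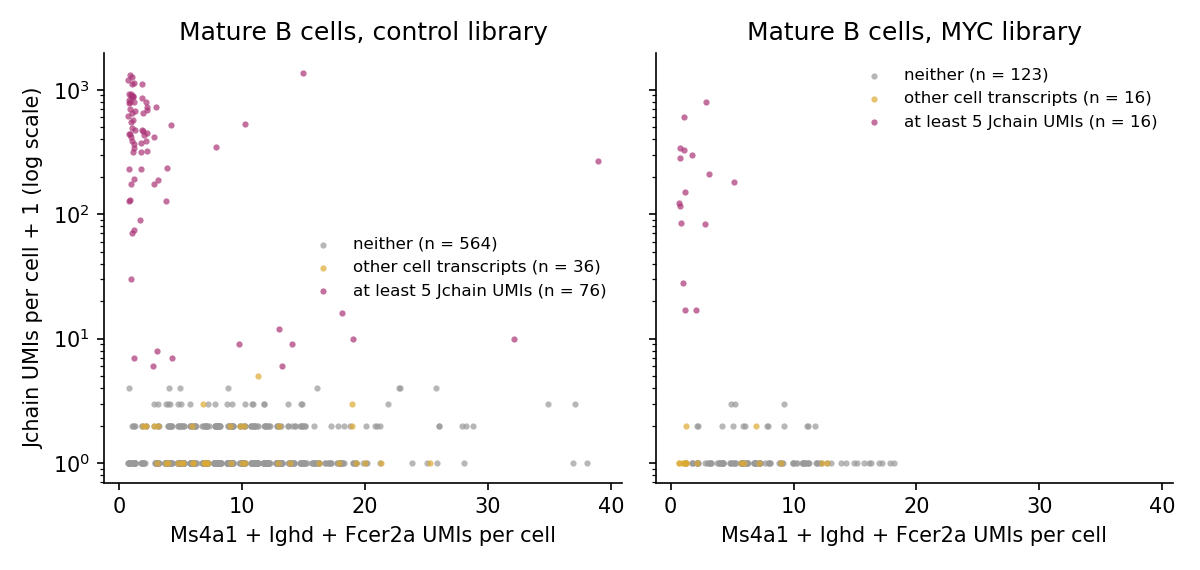
Jchain UMIs plus 1 (log scale) against the summed UMIs of Ms4a1, Ighd and Fcer2a, shifted sideways by up to 0.3 for legibility, 1 point per mature B cell, with 676 control cells on the left and 155 MYC cells on the right. The 76 and 16 cells with at least 5 Jchain UMIs stand mostly at 1 UMI of the mature markers, and colours mark those cells and the 36 and 16 with other cell transcripts.

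Because such cells weigh heavily in summed UMIs, results are also given for Ighd-positive members without them, 425 control and 102 MYC cells, called Ighd-positive B cells below. Markers of other cells differed between the libraries over all members. The 12 monocyte and macrophage markers summed to 815 CPM (UMIs of a gene scaled to 1000000 UMIs in all) among control and 2583 CPM among MYC members, the 9 erythroid markers to 6642 and 969 CPM, and the 15 neutrophil markers to 2402 and 3473 CPM. Of the 10 T cell markers, at 37.3 and 23.3 CPM, Cd3e, Trac and Cd4 were at 0 in the MYC members and Cd8a in the control members. With plasma and other cell transcripts left out, the monocyte and macrophage markers stood at 315 and 558 CPM and the erythroid ones at 2041 and 1438 CPM. Their part in the gene results was not tested beyond the values given for the Ighd-positive B cells.

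Mature B cells were a smaller share of the MYC library. They made up 5.10% of kept barcodes in the control (676 of 13251, 95% Clopper-Pearson interval 4.73 to 5.49%) and 1.47% in the MYC library (155 of 10543, 1.25 to 1.72%), a share 3.47-fold lower (ratio 0.288, counting interval 0.240 to 0.344). Of the barcodes that were not rich in neutrophil RNA, the shares were 11.5% and 3.70%, with a ratio of 0.321. Other lymphoid cells were also less frequent there: B progenitors were 278 and 9 barcodes (ratio 0.0407), plasma cells 138 and 47 (0.428), and T cells 271 and 103 (0.478). Shares of 1 library sum to a whole, so a lower share does not say how many B cells the marrow held.

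**Figure D2:**
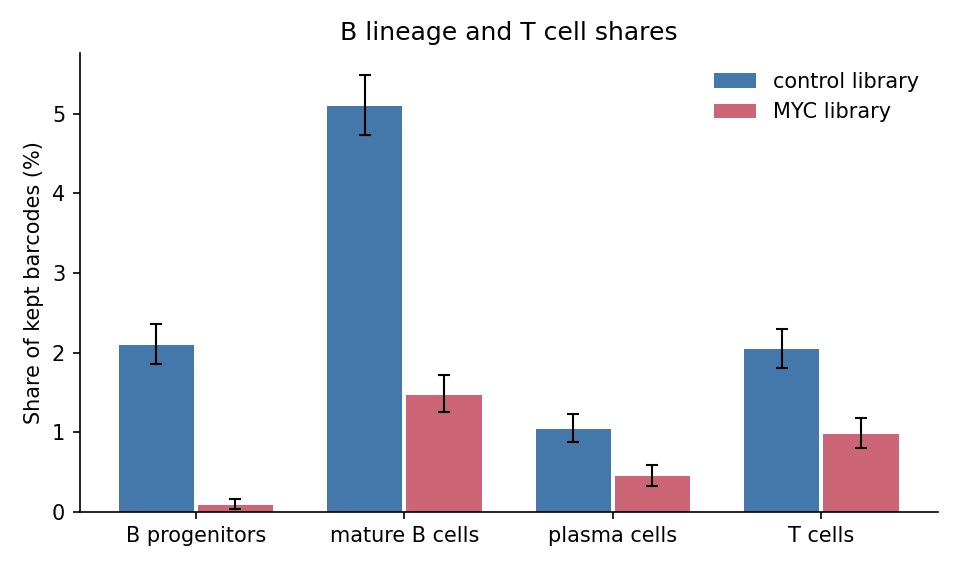
Share of kept barcodes (%) of B progenitors, mature B cells, plasma cells and T cells in the control and MYC libraries; bars are shares and error bars 95% Clopper-Pearson intervals, which cover counting error only. Mature B cells stand at 5.10% and 1.47%, and all 4 shares are lower in the MYC library.

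Among the genes of the rule, Ms4a1 was found in 94.1% of the control and 86.5% of the MYC members (669 and 348 CPM), Ighd in 67.8% and 75.5% (307 and 386 CPM) and Fcer2a in 46.3% and 41.3% (137 and 83.4 CPM). All of Ms4a1, Ighd and Fcer2a were found in 266 control cells (39.3%) and 53 MYC cells (34.2%). Cd79a stood at 949 and 920 CPM, and Cd79b at 650 and 629 CPM. Just inside the limits were 11 control and 12 MYC members with exactly 3 Cd79a and Cd79b UMIs, and 63 and 20 with a single UMI of the mature markers. Just outside them were 15 and 19 barcodes with 2 Cd79a and Cd79b UMIs, and 249 and 138 with no UMI of the mature markers.

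The count tables hold a feature named MYC beside the mouse gene Myc. Its sequence is not given in the sources used here. Its UMIs therefore say how many captured molecules were assigned to that sequence and not how much transgene RNA the cells held. Few of its UMIs were in mature B cells. No UMI of this feature was found in the 676 control members (0 UMIs), which allows a share of cells with a UMI of up to 0.444%, taking 3 counts of the total as the limit (exact Clopper-Pearson bound 0.544%), while 2 of the 155 MYC members held 1 UMI each (1.29%, at a median of 5323 UMIs per cell). In the MYC library's neutrophil-rich barcodes, at a median of 6743 UMIs, 207 of 6350 (3.26%) held it, and in its T cells, at a median of 5230 UMIs, 1 of 103 (0.971%). With every cell thinned to 1000 UMIs, MYC was found in 0 of 155 mature B cells, which allows up to 1.94% by the same limit (exact bound 2.35%), in 1 of 103 T cells (0.971%) and in 0.756% of the neutrophil-rich barcodes (48 of 6350). A separate draw from the 123 MYC members without plasma or other cell transcripts gave 1 cell (0.813%, 0.0206 to 4.45%). The B and T cell shares after thinning rest on 0 or 1 cell, so no order is read from them. Mouse Myc stood at 16.0 CPM (88 UMIs) in the control and 7.22 CPM (9 UMIs) in the MYC members.

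UMIs were then summed over the members of each library and set against each other gene by gene. Of 2052 genes that averaged 50 CPM or more, 244 (11.9%) were at least 1.5-fold higher in the MYC members and 349 (17%) at least 1.5-fold lower, in both cases with a counting interval that excluded no difference. The median log2 ratio, MYC over control, was -0.16 over all genes. Within the Ighd-positive B cells 236 of 2212 genes (10.7%) were higher and 536 (24.2%) lower, with a median of -0.24. The balance between the directions followed the scaling: with median-of-ratios scaling 344 genes were higher and 247 lower, and with ribosomal protein genes left out of the denominator 456 and 223, with medians of -0.04 and 0.02.

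A difference across a whole family was seen in the genes of ribosomal proteins, the structural parts of the ribosome. Of 80 measured, 61 were called higher and 0 lower, beside 11.9% and 17% of all genes (9.28% higher among the other genes), with a median log2 ratio of 1.01, and all 80 had a ratio above 0. Rps18 had the largest ratio, at 1062 CPM among control and 3815 CPM among MYC members (log2 ratio 1.85, 1.79 to 1.90), followed by Rpl32 at 1482 and 4500 CPM (1.60). Near the other end, Rpl37a stood at 2978 and 3316 CPM (0.16) and Rps27l at 192 and 196 CPM (0.04). Per cell, ribosomal protein genes made up a median of 12.03% of UMIs in control members (lower to upper quartile 8.91 to 14.01%) and 25.3% in MYC members (20.7 to 28.5%). The ranges between the quartiles did not overlap, though single cells did. With Ighd-positive B cells alone the medians were 12.6% and 26.4%, and in the Jchain-bearing members 6.07% and 14.2%.

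**Figure D3:**
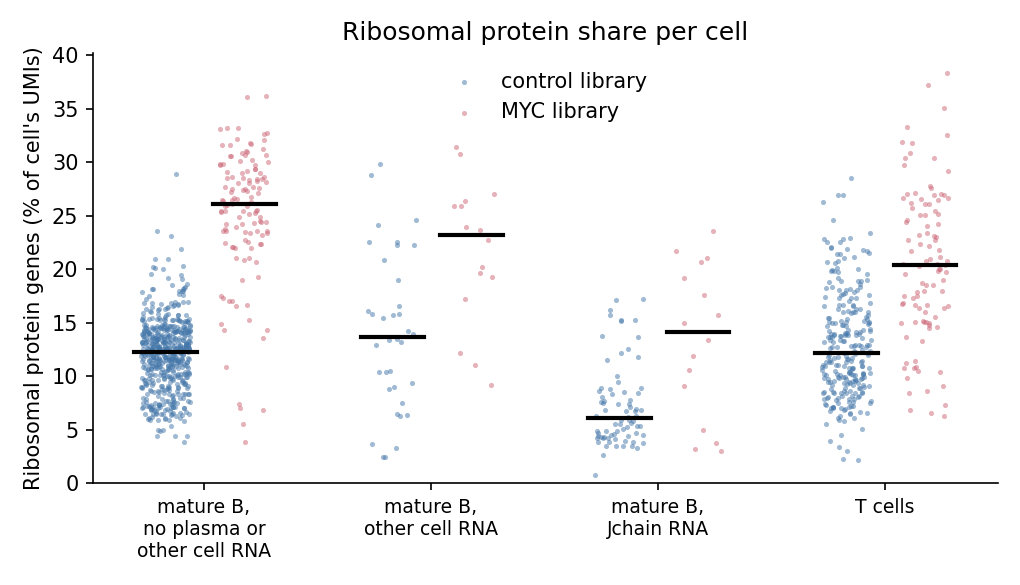
Share of each cell's UMIs from ribosomal protein genes (%), 1 point per cell, black bars at medians, for mature B cells without plasma or other cell transcripts (medians 12.3 and 26.1%), with other cell transcripts, with Jchain, and for T cells (12.2 and 20.4%). The MYC library stands above the control in each of the 4 groups.

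The same direction was seen outside the B cells. T cells had medians of 12.2% and 20.4%, plasma cells of 4.71% and 16.1%, and the neutrophil-rich barcodes of 2.83% and 5.27%. Over all other kept barcodes, meaning every kept barcode that was not a mature B cell, 44 of 80 ribosomal protein genes were called higher, against 9.5% of all genes, with a median log2 ratio of 0.65 beside 1.01 in the mature B cells. These groups of cells come from the same pair of libraries, and the difference between them was not tested.

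The single genes named next averaged at least 100 CPM and exclude ribosomal protein, immunoglobulin, haemoglobin and other-cell marker genes, among others. Within that set the largest ratio was that of Ssr4, a subunit of the complex that helps proteins into the endoplasmic reticulum. It stood at 254 CPM among control and 747 CPM among MYC members (log2 ratio 1.56, 1.44 to 1.68) and stayed that far apart in the Ighd-positive B cells (1.51). Next to it, Eef1b2, an elongation factor subunit, stood at 513 and 1248 CPM (1.28), Tpt1, a growth-related protein, at 2470 and 5428 CPM (1.14), and Nme2, a nucleoside diphosphate kinase, at 279 and 663 CPM (1.25). Rbm3, a cold-inducible RNA-binding protein, had a log2 ratio of 1.12 and the ubiquitin gene Ubb one of 1.19. Ppp1r14b, a phosphatase inhibitor, had 1.10, the endoplasmic reticulum folding enzyme Ppib 1.09 and Phgdh, the first enzyme of serine synthesis, 1.23. In all other kept barcodes these genes were above 0 as well, from Ppib at 0.77 to Rbm3 at 1.33. Higher levels of them were thus not seen in mature B cells alone. All of these were above 0 in the Ighd-positive B cells too, the lowest being Phgdh at 0.64. The other 3 of the 12 largest ratios shrank or turned there: Cst3, a protease inhibitor abundant in myeloid cells, had -0.23 in place of 1.18, Itm2b 0.25 in place of 1.20, and Mt1, a metal-binding protein, 0.32 (-1.29 to 1.69) in place of 1.54.

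At the low end of the same set, Cd24a, a surface protein of immature B cells, stood at 429 CPM among control and 132 CPM among MYC members (log2 ratio -1.70, -1.94 to -1.47). Bach2, which holds back plasma cell differentiation, stood at 167 and 56.1 CPM (-1.58, -1.95 to -1.22), and Spib, an Ets-family factor of B cells, at 175 and 72.2 CPM (-1.28). Cmah, which makes a form of sialic acid, had -1.36, Smc4, a condensin subunit, -1.09, Top1, a DNA topoisomerase, -1.01, and Pax5 -1.01. Med13, Cyfip2, Fchsd2, Rabgap1l and Trp53inp1 lay between -1.09 and -1.01. All 12 were below 0 in the Ighd-positive B cells, from Smc4 at -1.46 to Trp53inp1 at -0.60 (-1.32 to 0.05). In all other kept barcodes Cd24a had -1.19 and Smc4 -0.62, so lower levels of these genes were not seen in mature B cells alone.

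In the list for the activating arm of the B cell receptor, 4 of 16 measured genes were called lower and 0 higher. Their median log2 ratio was -0.42 beside -0.16 over all genes. This list also holds Inpp5d, the gene of an inhibitory phosphatase, which the inhibitory list below lacks. Among the lower genes Syk, the kinase that reads the phosphorylated receptor, stood at 275 CPM among control and 160 CPM among MYC members (-0.78). Malt1, which carries the signal to NF-kappaB, stood at 146 and 81.0 CPM (-0.85, -1.16 to -0.55), and the adaptor Bank1 at 270 and 171 CPM (-0.66). The kinase gene Lyn stood at 195 and 178 CPM (-0.13) and the adaptor gene Blnk at 134 and 109 CPM (-0.29), with no call. Over the Ighd-positive B cells 9 of 18 were called lower and 0 higher, beside 24.2% and 10.7% of all genes there.

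Among inhibitory receptors and phosphatases of the same pathway, 4 of 8 were called lower and 0 higher, with a median of -0.59. Siglecg, a sialic acid receptor that dampens B cell calcium signals, stood at 172 and 88.2 CPM (-0.96, -1.26 to -0.68), and its relative Cd22 at 163 and 103 CPM (-0.66). Fcgr2b, the inhibitory Fc receptor, stood at 60.5 and 40.1 CPM (-0.59), and the co-inhibitory receptor Btla at 116 and 75.4 CPM (-0.62). The phosphatase gene Ptpn6 was at 216 and 194 CPM (-0.16). These shares, 4 of 16 and 4 of 8, stand beside 17% of all genes called lower. Without the Jchain-bearing members, 5 of 19 activating and 1 of 10 inhibitory genes were lower, beside 17.2% of all genes. With ribosomal protein genes left out of the denominator, 1 of 9 inhibitory and 4 of 18 activating genes were called lower, beside 8.89% of all genes.

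Of 19 measured B cell transcription factors, 13 were lower and 1 higher, beside 17% and 11.9% of all genes, with a median log2 ratio of -0.71. Pax5, which keeps the B cell identity, stood at 276 CPM among control and 137 CPM among MYC members (-1.01, -1.24 to -0.78), and Ebf1, which acts with it, at 500 and 309 CPM (-0.70, -0.85 to -0.54). Beside Bach2 (-1.58) and Spib (-1.28), Foxo1 stood at 92.7 and 42.5 CPM (-1.12). Ikzf3 (-0.96), Irf4 (-0.91), Bcl11a (-0.90), Tcf3 (-0.87), Pou2af1 (-0.74), Ets1 (-0.71), Ikzf1 (-0.62) and Mef2c (-0.61) were the other lower ones. The 1 higher gene was Spi1, the factor PU.1 shared with myeloid cells, at 67.4 and 113 CPM (0.75), which was not called in the Ighd-positive B cells (0.41, -0.11 to 0.90). There, 11 of 19 factors were lower and 0 higher, beside 24.2% of all genes lower, with a median of -0.65, and Pax5 stood at 446 and 263 CPM (-0.76), Ebf1 at 825 and 604 CPM (-0.45, past counting error but not past 1.5-fold) and Bach2 at 290 and 108 CPM. With ribosomal protein genes left out of the denominator 8 of 19 were lower and 1 higher, beside 8.89% of all genes lower.

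The same pattern was looked for in the share of cells with a UMI, after thinning every cell to 1000 UMIs. Bach2 was found in 21.3% of the control and 8.39% of the MYC members (ratio 0.394, 0.205 to 0.695), and in 3.32% of control T cells and 0 of 103 MYC T cells, which allows up to 2.91% (exact bound 3.52%). Pax5 was found in 34.5% and 20% (ratio 0.580, 0.385 to 0.846), and in 0.556% and 0.0945% of neutrophil-rich barcodes, with 0 T cells in either library. Without thinning, the shares were 55.0% and 32.3% for Bach2 and 75% and 55.5% for Pax5. H2-Aa, an MHC class II chain, was found in 68.5% and 72.9% of thinned members (ratio 1.06, 0.859 to 1.31), and in 4.06% and 0.971% of T cells.

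**Figure D4:**
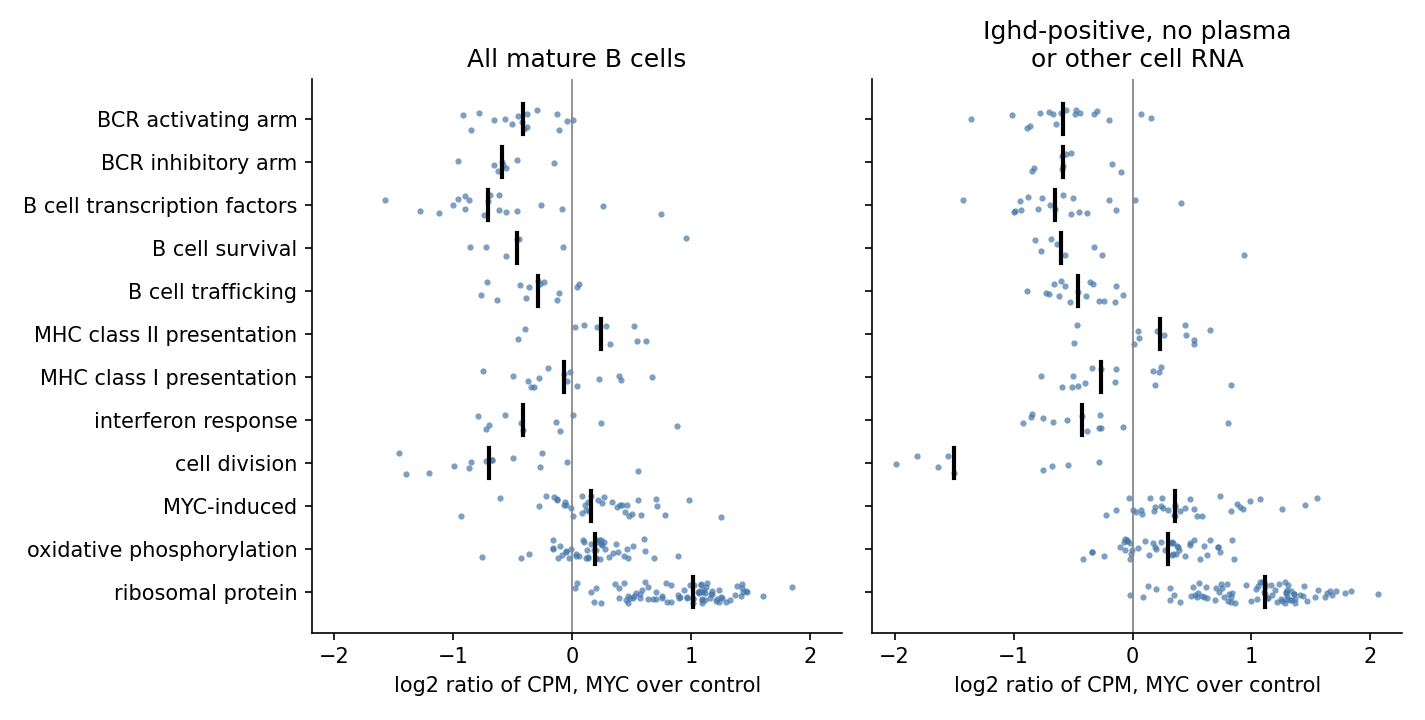
Log2 ratio of CPM, MYC over control, for the measured genes of 12 lists (1 point per gene, black bars at medians, shifted up or down for legibility), over all mature B cells on the left and over the Ighd-positive B cells on the right. Medians run from -0.71 for B cell transcription factors to 1.01 for ribosomal proteins on the left, and cell division has the lowest median on the right, -1.50.

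Of 7 measured survival genes, 2 were lower and 1 higher, with a median of -0.47. With so few genes these counts are near the shares over all genes, 17% lower and 11.9% higher. Tnfrsf13c, the BAFF receptor, stood at 171 CPM among control and 93.8 CPM among MYC members (-0.86, -1.15 to -0.59), and Nfkb2, which acts downstream of it, at 66.5 and 40.1 CPM (-0.73). Bax, a promoter of cell death, was the higher one, at 43.4 and 84.2 CPM (0.95, 0.61 to 1.29), and had 1.13 in all other kept barcodes. The survival gene Bcl2 stood at 97.6 and 70.6 CPM (-0.47) and Mcl1 at 306 and 289 CPM (-0.08).

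Of 13 trafficking genes, 3 were lower and 0 higher, beside 17% of all genes lower, with a median of -0.29. Without the Jchain-bearing members 2 of 15 were lower, beside 17.2%, so the count is near that over all genes. The 3 were S1pr1, the receptor that draws cells out into the blood, at 123 and 72.2 CPM (-0.77), the integrin chain Itga4 at 178 and 108 CPM (-0.72), and Cxcr4, the receptor that retains cells in the marrow, at 62.3 and 40.1 CPM (-0.64).

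MHC class II genes, with which B cells present antigen to helper T cells, had a median log2 ratio of 0.24. Of 10 measured genes 1 was higher and 0 lower, beside 11.9% and 17% of all genes. H2-Aa stood at 1294 CPM among control and 1386 CPM among MYC members (0.10, 0.02 to 0.18), H2-Ab1 at 911 and 1137 CPM (0.32), H2-Eb1 at 735 and 1069 CPM (0.54) and Cd74, their chaperone, at 4255 and 4904 CPM (0.20). H2-DMa, which loads peptides, was the higher one, at 141 and 216 CPM (0.62, 0.41 to 0.82). Below 0 were Ciita, the master regulator of the group (-0.46), and H2-Ob (-0.40), neither of them called. Among Ighd-positive B cells the median was 0.23, with H2-Eb1 at 1181 and 1859 CPM (0.65). In all other kept barcodes 0 of 6 measured genes were higher and 2 lower (against 10.1% of all genes there), with a median of -0.46.

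Among 15 genes of MHC class I presentation, 1 was higher, the immunoproteasome subunit Psmb8 at 208 and 332 CPM (0.67), and 1 lower, Tapbp, which loads peptides, at 150 and 89.0 CPM (-0.75). Their median was -0.07, and both counts lie below the shares over all genes.

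Of 10 listed genes of the immature stage, 2 were measured over all members, and both were called lower, beside 17% of all genes. With 2 genes this count says little about the list. Besides Cd24a (-1.70), Vpreb3, carried by pre-B and immature cells, stood at 216 CPM among control and 113 CPM among MYC members (-0.93). The others had few UMIs: Cd93 had 257 and 29, Sox4 326 and 22, Myb 317 and 22, and Cecr2 234 and 13. In the Ighd-positive B cells, Sox4 stood at 76.5 and 5.68 CPM (log2 ratio -3.75, -6.04 to -2.18) and Cd93 at 45.1 and 3.79 CPM (-3.57, -6.64 to -1.68). Both averaged under the 50 CPM limit there, and their ratios rest on few MYC UMIs. The Cd24a share after thinning was 32.7% and 15.5% (ratio 0.474, 0.297 to 0.723), with 11.4% and 7.77% in T cells and 53.9% and 39.0% in neutrophil-rich barcodes. Vpreb3 was found in 18.3% and 12.3% of thinned members (ratio 0.668, 0.389 to 1.09) and in 37.9% and 36.8% without thinning. Cd93 was found in 5.47% and 2.58% after thinning (ratio 0.471, 0.122 to 1.31). Neither of these ratios excludes equal shares.

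Genes of cell division were compared by summed levels first. Over all members 9 of 14 were lower and 0 higher, beside 17% of all genes lower, with a median log2 ratio of -0.70. Mki67, a marker of dividing cells, stood at 468 and 171 CPM (-1.45, -1.66 to -1.25), Ube2c at 97.4 and 36.9 CPM (-1.40) and Cenpf at 104 and 44.9 CPM (-1.21). A single control cell held 198 of the 2575 Mki67 UMIs. Averaged over cells in place of sums, 1 of 9 was lower and 1 higher, beside 18% and 11.5% of all genes, and the median was -0.36. With Ighd-positive B cells alone 7 of 9 were lower, beside 24.2% of all genes, with a median of -1.50 and Mki67 at 366 and 104 CPM. After thinning, the share of members with Mki67 had a ratio of 0.665 (0.366 to 1.13), which does not exclude equal shares. These shares were 15.5% and 10.3%, near those of T cells (13.3% and 13.6%) and below those of neutrophil-rich barcodes (26.7% and 21.6%). Top2a, another division gene, was found in 10.2% of the control and 11.6% of the MYC members after thinning, and in 31.7% and 32.3% without it, beside summed levels of 263 and 159 CPM (-0.73). Thinned T cells had it in 8.49% and 10.7% and neutrophil-rich barcodes in 19.8% and 19.0%, so neither gene's share is read as a share of dividing members. In all other kept barcodes Mki67 had a log2 ratio of -1.01.

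Of genes of recirculating follicular B cells, 1 of 8 measured, Btla, was lower, near the share of 17% over all genes, with a median of -0.29. Fcmr, the IgM Fc receptor, stood at 257 and 222 CPM (-0.21) and Cd55, a complement regulator, at 206 and 171 CPM (-0.27). Of the marginal zone and B-1 genes only Cr2 and Zbtb20 were measured. Cr2, the complement receptor CD21, stood at 75.6 and 41.7 CPM (-0.86) and Zbtb20, a zinc finger factor, at 289 and 156 CPM (-0.89), both called lower. With so few genes these calls say little about the list. After thinning, Cr2 was found in 10.8% of the control and 5.81% of the MYC members. That ratio, 0.538 (0.236 to 1.08), does not exclude equal shares. No memory gene and no germinal centre gene reached 50 CPM.

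Of 9 measured immunoglobulin constant genes 3 were higher and 3 lower, beside 11.9% and 17% of all genes, and several turned direction without the plasma-like members. Ighm, the IgM heavy chain, was lower in both sets of cells, at 39135 CPM among control and 24326 CPM among MYC members (-0.69, -0.70 to -0.67) and with -0.88 in the Ighd-positive B cells. Igkc, the kappa light chain, was higher over all members, at 60629 and 97913 CPM (0.69), but lower in the Ighd-positive B cells (-0.28, -0.35 to -0.22). Igha stood at 342 and 2979 CPM (3.12), yet 1 MYC cell held 2267 of its 3715 UMIs and 1 control cell 1754 of 1881. Ighg2b stood at 1793 and 3488 CPM (0.96), with 4299 of 4350 MYC UMIs in 1 cell. Iglc1, a lambda chain, was lower over all members (-1.53) and higher in the Ighd-positive B cells (0.87). Ighg3 had 11193 UMIs in the control and 1 UMI in the MYC members (log2 ratio -11.31, -16.61 to -8.83), and stood at 351 and 0.430 CPM in all other kept barcodes.

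By their dominant heavy chain, 647 of 676 control members (95.7%) and 147 of 154 MYC members (95.5%) carried mostly IgM or IgD. Ighd was a gene of the member rule, and by the same count 172 of 189 T cells of the control (91.0%) and 30 of 31 of the MYC library (96.8%), which make no antibody, fell in this class, so the share is not read as a trait of the members. By light chain, with at least 3 light chain UMIs of which 80% were of 1 kind, 28 of 434 control members (6.45%, 4.33 to 9.19%) and 8 of 80 MYC members (10%, 4.42 to 18.8%) were lambda cells. The ratio of the lambda shares was 1.55 (0.610 to 3.49), which does not exclude equal shares. A further 242 and 69 members were mixed. The same limits called 195 of 271 T cells of the control and 42 of 103 of the MYC library kappa, 0 lambda, and 18 and 1 mixed. The kappa and mixed counts, and so the lambda shares, therefore include free kappa RNA, to an extent that was not tested.

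Of 12 measured plasma cell genes, 2 were higher and 2 lower, with a median of -0.23, near the shares over all genes. Ssr4 (1.56) and Fkbp11, a folding enzyme, at 28.9 and 78.6 CPM (1.44), were higher, and Jchain, at 6660 and 2935 CPM (-1.18), and Irf4 were lower. Over the Ighd-positive B cells Irf4, which antigen signals induce, stood at 62.4 and 13.3 CPM (-2.23, -3.58 to -1.15). It averaged under the 50 CPM limit there, and its ratio rests on few MYC UMIs.

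Of 17 immediate early and activation genes, 1 was higher and 4 lower, beside 11.9% and 17% of all genes, with a median of -0.14. Ier2 was higher (0.61), but had 0.41 without the Jchain-bearing members, where 0 of 17 were called higher. Rgs2, a regulator of G protein signals, stood at 114 and 48.9 CPM (-1.22), and Zfp36l1 (-0.76), Klf6 (-0.62) and Dusp2 (-0.59) were the other lower ones. Of 11 interferon response genes 1 was higher, Bst2 (0.88), and 3 lower, among them Sp100 (-0.72) and Samhd1 (-0.70), with a median of -0.42. Without the Jchain-bearing members 0 of 12 were called higher and 4 lower, beside 9.7% and 17.2% of all genes. The median of that list was -0.78 in all other kept barcodes. Among 7 heat shock genes 1 was lower, Hsp90aa1 (-0.72), with a median of -0.27, and among 4 Toll-like sensing genes 1 was lower, Cd180 (-0.77), a surface partner of B cell growth signals.

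Genes known to be induced by MYC had a lower median ratio than the ribosomal protein genes. Of 37 measured, 5 were higher and 2 lower, the first near the share of 11.9% over all genes, with a median log2 ratio of 0.16 beside -0.16 over all genes. The higher ones were Nme2 (1.25), the D-type cyclin Ccnd2 (0.98), the nucleolar protein Fbl at 71.6 and 123 CPM (0.78), Atp5g1 (0.71) and C1qbp, a mitochondrial protein, at 68.5 and 111 CPM (0.70). The lower ones were Odc1, the first enzyme of polyamine synthesis, at 85.8 and 56.1 CPM (-0.61) and the transferrin receptor gene Tfrc at 66.0 and 34.5 CPM (-0.94). Among Ighd-positive B cells 10 of 34 were higher and 0 lower, beside 10.7% and 24.2% of all genes, with a median of 0.36, and Ccnd2 had 0.07 and Odc1 -0.13. In all other kept barcodes the median was 0.23, with 5 of 37 higher and 1 lower, beside 9.5% and 10.1% of all genes.

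Of 48 measured genes of oxidative phosphorylation, 4 were higher and 1 lower, both below the shares over all genes (11.9% and 17%), with a median of 0.19 and of 0.27 in all other kept barcodes. Ndufa8, a complex I subunit, stood at 43.8 and 81.0 CPM (0.89), and Atp5d (0.69), Cox4i1 (0.61) and Atp5g2 (0.60) were the other higher ones, while Atp5k stood at 218 and 129 CPM (-0.76). Of MYC's own partner network, Mga (-0.40) and Mxd4 (-0.33) were measured and neither was called.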

How the data were processed

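Bone marrow cells of 1 control and 1 MYC mouse library were measured by 3′ single-cell RNA sequencing. The deposited values are UMI counts (whole numbers for each gene in each barcode) that the authors made in Cell Ranger, version 6.0.0 per the file headers; Seurat and the builds GRCm38 and mm10 are listed per the submitters' processing notes. How barcodes were called as cells is not given in the sources used here. Groups follow the genotype labels. The members and gene lists were chosen with earlier results of these data known.

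Member UMIs were summed per library and divided by their totals, 5502803 and 1247172 UMIs, to give CPM. A gene counted as measured when its 2 levels averaged 50 CPM or more, and as called at 1.5-fold with an exact conditional binomial 95% interval that excluded 1. Genes of the member rule were left out. Genes at 0 were given 3 counts. No test was made with 1 library per group. Shares have Clopper-Pearson intervals, with a limit of 3 counts of the total beside a share of 0, and thinning drew 1000 UMIs per cell without replacement. All intervals cover counting error only. The calculation was tested on simulated counts with 200 changed genes. Python 3.11.15, numpy 2.4.6 and scipy 1.17.1 were used.

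Named genes were the 12 largest and 12 smallest ratios of genes averaging 100 CPM or more with an interval excluding 1, without genes of the member rule, mitochondrial, ribosomal protein, antigen receptor, haemoglobin and predicted genes, Xist, Tsix, genes of the Y chromosome and other-cell marker genes, and without genes over 3 times higher in other barcodes. Called genes of the receptor, transcription factor, survival, trafficking, MHC class II and immunoglobulin lists were added. Other genes named as examples, among them ribosomal protein genes and genes with no call, were chosen after their values were seen. Some genes that the rule names are not reported here.

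Doublets were not removed in the values given. Scrublet's automatic threshold marked 0 barcodes of the MYC library, so a score of at least 0.2 in both libraries, which marked 598 control (4.51%) and 305 MYC barcodes (2.89%), was an alternative. It was chosen after seeing the data, as were the members without plasma or other cell transcripts, the Ighd-positive B cells, barcodes shared by the libraries left out, and the denominator without ribosomal protein genes. Other alternatives changed the UMI, mitochondrial, marker and neutrophil limits, the scaling, the averaging, the free RNA, the low-value limit and the ratio.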

Additional observations from a re-analysis of the deposited data

Results flagged for a closer look

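The median log2 ratio of the MHC class II presentation genes differed in sign between mature B cells and all other kept barcodes. MYC over control, it was 0.24 in the mature B cells and -0.46 in all other kept barcodes, from 10 and 6 measured genes. Among those other barcodes, H2-Aa was found in 14.6% of the control and 8.91% of the MYC barcodes, beside 130 and 78.0 CPM. Summed levels there also depend on how many barcodes hold such transcripts, and this part was not tested. The difference was not tested, since each library was sequenced from 1 sample.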

How the results depend on the processing

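The ratio of the mature B cell shares ran from 0.263 to 0.321 over 11 alternatives. None of them loosened the limit on the mature markers. That limit alone left out 249 control and 138 MYC barcodes, equal to 36.8% and 89.0% of the member numbers. The ratio with those barcodes was not calculated. The lambda ratio and the thinned shares moved by less than their intervals under every alternative run for them. Planned removal of doublets at Scrublet's automatic threshold was not run. Of the named genes' 1064 further values, 952 kept direction and call, 94 kept direction but lost the call and 18 turned. No paired analysis was possible because each group holds 1 library. The small number of MYC cells, 155, limits most results.

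Genes called higher were 456 without ribosomal protein genes in the denominator, 440 from 20 CPM and 112 from 200 CPM, and genes called lower 223, 902 and 39, with 536 in the Ighd-positive B cells. The median of all genes was -0.10 under 5% mitochondrial UMIs, -0.22 with at least 2 mature marker UMIs, -0.20 with at least 6 Cd79a and Cd79b UMIs, -0.25 without plasma or other cell transcripts, -0.24 in the Ighd-positive B cells, -0.036 with median-of-ratios scaling, -0.12 without immunoglobulin and neutrophil genes in the denominator, 0.024 without ribosomal protein genes and 0.16 from 200 CPM. The ribosomal protein median was 1.11 under 5% mitochondrial UMIs, without plasma or other cell transcripts and in the Ighd-positive B cells, 1.14 with median-of-ratios scaling and 1.20 without ribosomal protein genes in the denominator. The MYC-induced median was 0.076 with at least 2 mature marker UMIs and 0.52 averaged over cells. The oxidative phosphorylation median was 0.28 under 5% mitochondrial UMIs, 0.074 with at least 2 mature marker UMIs, 0.076 without Jchain-bearing members, 0.29 without plasma or other cell transcripts, 0.30 in the Ighd-positive B cells, 0.31 with median-of-ratios scaling, 0.37 without ribosomal protein genes in the denominator and 0.33 averaged over cells. The cell division median was -1.57 without plasma or other cell transcripts and -1.50 in the Ighd-positive B cells.

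Without Jchain-bearing members the log2 ratio turned to -2.20 for Igha, -0.95 for Ighg2b, -0.91 for Igkc, 0.68 for Iglc1 and -0.056 for Mt1. Without plasma or other cell transcripts it turned to -2.27 for Igha, -1.90 for Ighg2b, -0.74 for Igkc, 1.04 for Iglc1, -0.051 for Mt1 and -0.042 for Cst3. In the Ighd-positive B cells it turned to -0.61 for Igha, -1.29 for Ighg2b, -0.28 for Igkc, 0.87 for Iglc1 and -0.23 for Cst3. Ighg2b was at -5.15 with at least 2 mature marker UMIs and Iglc1 at 0.69 with at least 6 Cd79a and Cd79b UMIs. The cause of these shifts was not tested beyond the cells each alternative leaves out.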

Other observations

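The genes called in mature B cells differed in length. In the GENCODE vM21 annotation the longest transcript had a median of 1379 bases for the 244 higher genes, 3130 bases for the 1456 genes with no call (3 further genes, Xist, Tsix or of the Y chromosome, were left out), and 4872 bases for the 349 lower genes, and the genes spanned medians of 4809, 20034 and 45612 bases. Without ribosomal protein genes the 183 higher genes had a median of 1441 bases. Genes are not independent replicates, and the relation was not tested.

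Asb2, a subunit of a ubiquitin ligase, had 1 UMI in the 676 control members and 33 UMIs in the 155 MYC members. In the Ighd-positive B cells it had 1 and 2 UMIs (0.455 and 3.79 CPM), so most of its UMIs in the MYC members lay outside those cells, and in all other kept barcodes it stood at 1.37 and 11.9 CPM. The gene was chosen after its values were seen.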
